A study of Mus musculus with 16 samples.

Results

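Germline stem cells (GSCs) of male mice, kept in culture, were profiled in 12 RNA libraries, and 2 of these were set against each other: the library labelled ML, called mesenchymal-like here, and the DMSO control library of the inhibitor experiment. They were chosen because they were the RNA libraries richest in fibroblast transcripts, so their high level is a description and not a finding. The series holds 16 samples in all, 12 RNA libraries and 4 ATAC-seq libraries, and the ATAC-seq libraries were not analysed here. Both cultures were started from germ cells of postnatal day 5.5 mice that carry the transgene Tg(Pou5f1-EGFP)2Mnn on a B6;CBA background, sorted for the Oct4-GFP reporter and the absence of KIT, and both received GDNF, EGF and bFGF in a medium free of serum. The mesenchymal-like culture grew without feeders on Matrigel, a basement membrane extract, at 10 µg/cm2. The DMSO culture grew on mouse embryonic fibroblasts (MEF) and received only the solvent of UNC0638, an inhibitor of the histone methyltransferase G9a. Other libraries were used as context: feeder cultures with UNC0638 at 0.5, 1 or 2 µM for 48 hours, a feeder culture at day 0, cultures 4 and 9 days after transfer to Matrigel, the epithelial-like culture (labelled EL) on Matrigel at 0.1 µg/cm2, and fractions with low, mid or high GFP (GFP-low, GFP-mid, GFP-high) sorted from cultures at 10 µg/cm2. Nothing in the labels says whether feeder cells were removed before RNA extraction, or whether the mesenchymal-like culture had earlier been on feeders. With 1 library in each group, no value below could be set against a spread between replicates, and the intervals given cover counting error only.

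Mesenchymal cells such as fibroblasts build the extracellular matrix. They secrete fibrillar collagens, glycoproteins and small leucine-rich proteoglycans, process and cross-link the collagen, carry contractile filaments, and release growth factors and chemokines. Fibroblasts differ between tissues and culture states in how much of each they make, from a contractile programme with smooth muscle actin to an inflammatory one with chemokines and acute-phase proteins. MEF layers are used under germline stem cells because they supply matrix and soluble factors. The comparison asked whether the mesenchymal RNA of both libraries had the same make-up once its overall level was allowed for. That RNA was described with 227 genes in 10 lists, named the mesenchymal pool, and 214 of them averaged at least 1 CPM (each count divided by the scaled total of its library) over the 12 libraries.

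The promoters of 5 of these genes show the sequences in front of members that lay on opposite sides in the comparison described below. Vim and Tinagl (Tinagl1 in current naming) lay above the pool median in the mesenchymal-like library, and Mmp3, Mmp13 and Cxcl1 lay below it. Each sequence is the 250 bases before the transcription start on the gene's own strand, from RefSeq, build GRCm38.p6. Capitals mark matches to the motifs searched on both strands: AP-1, spelled TGANTCA, the TEAD motif, spelled GGAATG, the CCAAT box, the GC box, spelled GGGCGG, and the longer NF-kB motif, given by name. Tinagl1 has a second start in the table, which is not shown.
Vim, chr2:13574061-13574310, plus strand: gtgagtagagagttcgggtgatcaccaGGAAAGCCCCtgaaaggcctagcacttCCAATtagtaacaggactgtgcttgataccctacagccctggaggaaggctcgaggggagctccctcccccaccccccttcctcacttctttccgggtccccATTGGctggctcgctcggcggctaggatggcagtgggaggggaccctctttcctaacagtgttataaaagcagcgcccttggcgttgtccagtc
Tinagl1, chr4:130175123-130175372, minus strand: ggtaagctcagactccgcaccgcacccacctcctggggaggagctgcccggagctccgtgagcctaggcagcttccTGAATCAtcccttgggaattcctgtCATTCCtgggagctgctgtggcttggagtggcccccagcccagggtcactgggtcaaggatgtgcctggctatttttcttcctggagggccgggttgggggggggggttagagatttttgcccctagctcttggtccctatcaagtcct
Mmp3, chr9:7445572-7445821, plus strand: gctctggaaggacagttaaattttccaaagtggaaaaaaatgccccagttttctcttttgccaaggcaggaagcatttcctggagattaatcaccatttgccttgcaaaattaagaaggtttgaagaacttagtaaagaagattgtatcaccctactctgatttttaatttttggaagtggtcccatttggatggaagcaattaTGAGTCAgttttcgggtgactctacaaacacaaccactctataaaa
Mmp13, chr9:7272264-7272513, plus strand: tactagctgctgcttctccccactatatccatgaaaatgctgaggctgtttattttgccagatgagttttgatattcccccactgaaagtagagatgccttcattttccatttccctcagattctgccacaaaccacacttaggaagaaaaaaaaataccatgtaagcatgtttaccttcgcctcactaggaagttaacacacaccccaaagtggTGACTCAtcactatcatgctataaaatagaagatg
Cxcl1, chr5:90890995-90891244, plus strand: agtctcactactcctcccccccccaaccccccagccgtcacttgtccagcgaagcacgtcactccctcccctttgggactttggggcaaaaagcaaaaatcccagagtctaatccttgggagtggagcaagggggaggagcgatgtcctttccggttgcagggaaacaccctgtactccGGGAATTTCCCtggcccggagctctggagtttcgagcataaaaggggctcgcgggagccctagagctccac
An AP-1 match stood at -174 in Tinagl1, at -46 in Mmp3 and at -35 in Mmp13, counted from the transcription start, so the same motif occurred on both sides. Tinagl1 also held a TEAD match at -149. Vim held CCAAT matches at -196 and -94 and an NF-kB match at -223, and Cxcl1 held overlapping NF-kB matches at -71 and -70. Shares were counted over windows from 250 bases before to 50 after the start. Members above or below the pool median are here those at least 2-fold from it. AP-1 was found in 7.81% of all 32851 promoters, in 17.2% of those of members above the pool median, in 11.1% of those below it and in 10.8% of those near it. NF-kB was found in 4.51% of all promoters, 5.17% of those above, 4.44% of those below and 9.64% of those near the median. TEAD was found in 14.7%, 13.8%, 11.1% and 19.3%, in the same order. The GC box was found in 35.7%, 65.5%, 48.9% and 62.7%, more often in each set of members than in all promoters, and CCAAT in 37.4%, 31.0%, 24.4% and 26.5%. The CArG motif, also searched, was found in 1.63%, 3.45%, 0.0% and 3.61%. A promoter was in the table for 48 of the 62 members above, 36 of the 53 below and 68 of the 99 near the median. A match describes the letters in this window and is not a site.

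The mesenchymal pool took 4.22% of the counts in the mesenchymal-like library (95% Clopper-Pearson interval 4.20 to 4.24) and 1.77% in the DMSO library (1.76 to 1.78). The other 10 libraries lay between 0.610% and 1.13%. With 0.5, 1 and 2 µM UNC0638 the pool took 1.13%, 0.804% and 0.927%, and on feeders at day 0 it took 0.637%. Summed CPM was 46268 against 17794, which was 2.60-fold higher in the mesenchymal-like library. The median log2 ratio of the members was 1.03. Of the 214 members, 107 were at least 2-fold higher in the mesenchymal-like library and 14 at least 2-fold lower, against 7.78% and 2.47% of the 14301 genes tested. In bulk RNA, more mesenchymal cells and more mesenchymal RNA per cell cannot be told apart. Totals were 4541279 counts for the mesenchymal-like and 5039912 for the DMSO library, within the range of 4335185 to 12019651 over the 12 libraries.

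**Figure D1:**
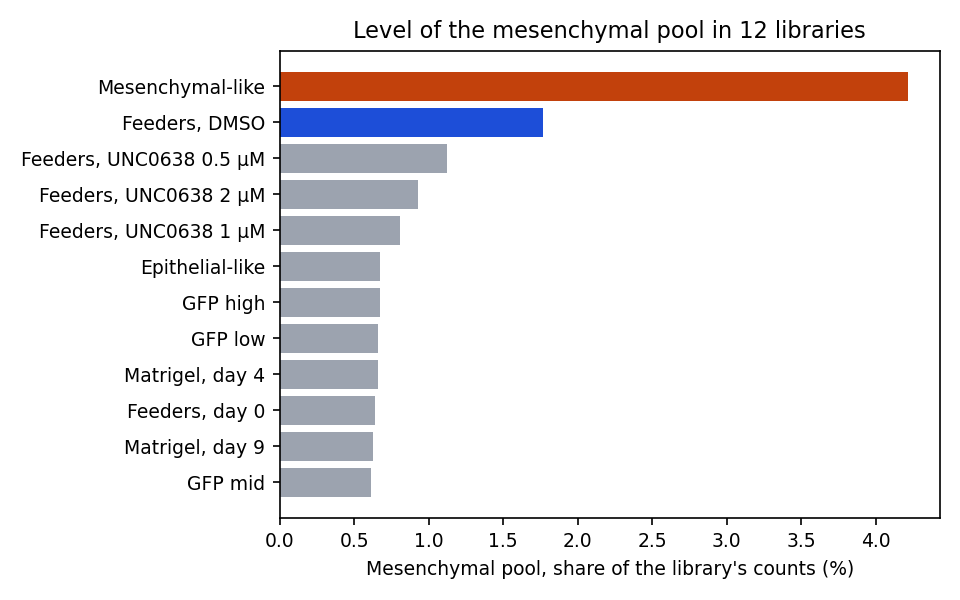
Share of each library's counts (%) taken by the 227 genes of the mesenchymal pool, 1 bar per library, with 1 library per group. The mesenchymal-like library (orange) stood at 4.22%, the DMSO feeder library (blue) at 1.77%, and the other 10 between 0.610% and 1.13%.

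The 4 genes taken as markers of the mesenchymal state did not keep step with each other. Col1a1, the main chain of type I collagen, had 2377 CPM in the mesenchymal-like and 1088 CPM in the DMSO library, and a median of 79.4 CPM in the other 10, where the highest value was 302 CPM. Its log2 ratio of 1.13 (1.08 to 1.18) was close to the pool median. Col3a1, the chain of type III collagen, had 294 CPM against 377 CPM, so it was lower in the library with more mesenchymal RNA (log2 ratio -0.36, -0.46 to -0.25). Vim, the intermediate filament protein vimentin, had 1478 CPM against 134 CPM, with 11.1 to 82.5 CPM in the other 10 libraries. Its ratio was 11.1-fold. Tinagl, a matricellular protein of basement membranes, had 128 CPM against 8.38 CPM, and no other library exceeded 6.87 CPM. All 4 were higher in both libraries than in any of the other 10.

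To allow for the overall level, the pool median of 1.03 was subtracted from each member's log2 ratio, which gives the scaled ratio. A member that only followed the level would have a scaled ratio of 0. Of the 214 members, 62 lay at least 2-fold above the median, 53 at least 2-fold below it and 99 within 2-fold. In later counts, members above or below the median are those at least 2-fold from it. Together 115 members (53.7%) departed, against 10.2% of all genes tested when these were centred on their own median. The counting interval left the median out for all 62 members above and for 52 of the 53 below. Counted only over the 198 members that would have passed the filter in the other 10 libraries, 56 lay above and 48 below. Of the 214 members, 145 had their highest value of the 12 libraries in the mesenchymal-like and 34 in the DMSO library.

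**Figure D2:**
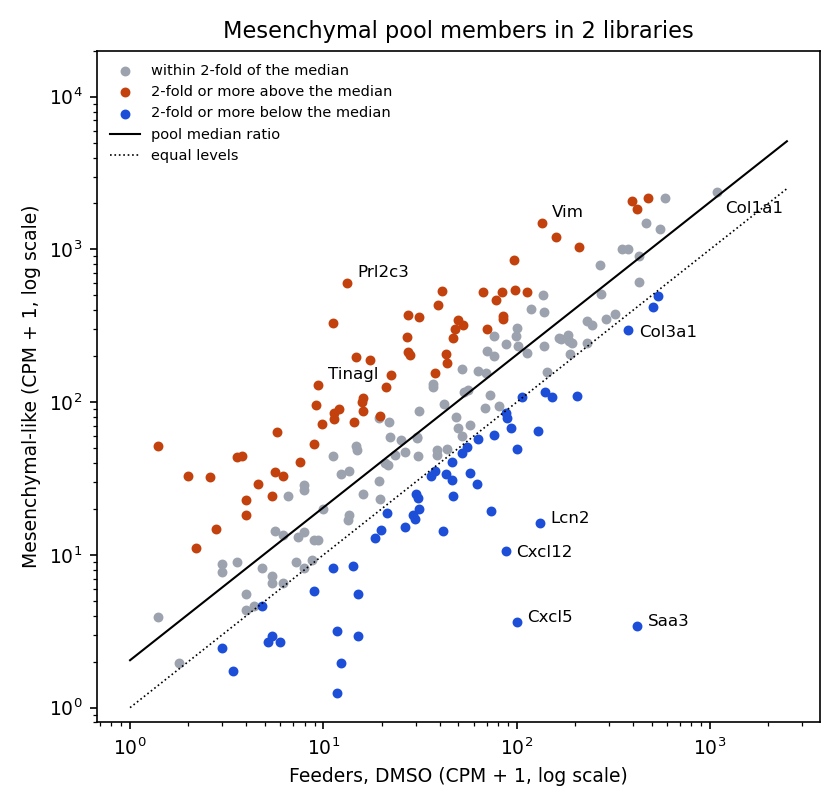
Levels of the 214 members in the DMSO feeder library (x axis, CPM + 1) and the mesenchymal-like library (y axis, CPM + 1), both on log scales. The solid line is the pool's median ratio and the dotted line marks equal levels; 62 members (orange) lie at least 2-fold above the solid line and 53 (blue) at least 2-fold below it.

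The order of the most abundant members also differed. Levels of different genes were compared as TPM, in which counts are divided by gene length and scaled to a fixed total. The 10 members with the highest TPM made up 42.8% of the pool in the mesenchymal-like and 39.0% in the DMSO library, and 5 of them were shared: Cd63, Lgals1, S100a11, S100a6 and Sparc. In the top 10 of the mesenchymal-like library alone were Anxa1, Prl2c3, S100a4, Timp1 and Vim. In that of the DMSO library alone were Bgn, Col1a1, Lcn2, Saa3 and Tagln2. The first place went to S100a6, a small calcium-binding protein, with 9.25% of the pool TPM in the mesenchymal-like library, and to Saa3, an acute-phase serum amyloid protein, with 12.6% in the DMSO library. S100a6 held 3.19% of the pool in the DMSO library, and Saa3 held 0.028% in the mesenchymal-like library. Of the 50 most abundant members, 35 were shared. To turn the make-up of one library into that of the other, 38.9% of the pool TPM would have to pass from some members to others.

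**Figure D3:**
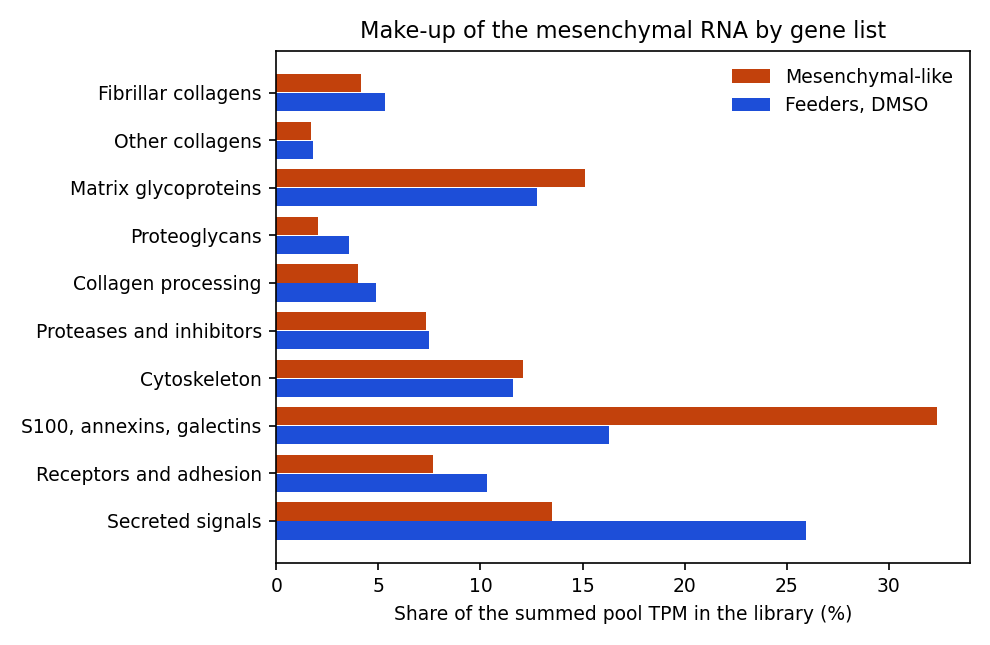
Share of the summed pool TPM (%) held by each of the 10 gene lists in the mesenchymal-like (orange) and DMSO feeder (blue) library, 1 library each. The S100, annexin and galectin list held 32.4% against 16.3%, and the secreted signals held 13.5% against 26.0%.

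Fibrillar collagens, the rope-like collagens that carry tensile load, lay on both sides of the pool median. All 7 passed the filter, and 4 lay within 2-fold of the pool median, as 99 of all 214 members did, with 2 above and 1 below. Col1a2 had 1353 CPM in the mesenchymal-like and 553 CPM in the DMSO library (scaled ratio 0.26), and Col5a1 had 234 against 101 CPM (0.17). Col5a3 (94.9 against 8.18 CPM) and Col11a1 (106 against 15.0 CPM), both minor fibrillar chains, lay above, with scaled ratios of 2.35 and 1.71. Col3a1 was the member below, at -1.39. The chains of type I collagen thus kept a similar proportion in both libraries, and type III did not.

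Among 14 other collagens, 5 lay at least 2-fold above and 3 at least 2-fold below the pool median. The basement membrane chains Col4a1 (1044 against 208 CPM, scaled ratio 1.29) and Col4a5 (52.2 against 7.98 CPM, 1.53) lay above, and Col4a2 (505 against 136 CPM) lay at 0.85. Col15a1, a collagen of the zone beneath basement membranes, had 31.6 CPM against 1.00 CPM, and 0.939 CPM was the highest value in the other 10 libraries. Col15a1 and Col7a1 (28.0 against 3.59 CPM), which are 2 of the 5 above, averaged under 1 CPM in those 10 libraries and passed the filter through the libraries compared. Over members that pass in the other 10 libraries, the median scaled ratio of the list was -0.39 and not 0.13. The 3 below were Col6a1 (66.9 against 92.4 CPM), Col6a2 (60.1 against 75.7 CPM) and Col12a1 (116 against 307 counts), which form microfibrils or associate with fibrils.

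Of 32 matrix glycoproteins that passed, of 34 listed, 7 lay at least 2-fold above and 10 at least 2-fold below. The median scaled ratio was -0.61. Above were Sparc, a collagen-binding matricellular protein (1832 against 418 CPM), Fbln2 (2075 against 392 CPM), Thbs1, thrombospondin 1 (2177 against 474 CPM), and Igfbp7 (266 against 26.2 CPM). Fn1, fibronectin, lay at 0.88 with 2186 against 582 CPM. Below were Fbln1 (108 against 204 CPM, scaled ratio -1.93), the elastic fibre genes Fbln5 (7.24 against 10.2 CPM, -1.47) and Mfap2 (22.5 against 29.9 CPM, -1.43), and Mfap4 (0.966 against 11.4 CPM, -3.69). The DMSO levels of Fbln1 and Mfap2 lay within the range of the other 10 libraries (122 to 234 and 16.7 to 40.5 CPM). Their levels thus did not rise with the pool in the DMSO library, while Fbln5 was at most at 5.01 CPM in the other 10. The summed level of the list was 2.91-fold higher in the mesenchymal-like library while its median scaled ratio was below 0. Of its members highest in CPM in the DMSO library, Fn1, Thbs1 and Sparc had scaled ratios above 0, and Nid2, nidogen 2, had 494 against 537 CPM and a scaled ratio of -1.15.

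Proteoglycans stood lowest of the 10 lists. Of 10 that passed, of 12 listed, 7 lay at least 2-fold below the pool median and none 2-fold above it. The median scaled ratio was -1.66. Even before scaling, their median log2 ratio was -0.62, although their summed level was 1.69-fold higher in the mesenchymal-like library (1216 against 720 CPM), mostly from Bgn. Decorin (Dcn) and lumican (Lum), small leucine-rich proteoglycans that bind collagen fibrils, had 64.0 against 128 CPM and 1.93 against 14.2 CPM. Lum averaged under 1 CPM in the other 10 libraries and passed the filter through the libraries compared. Vcan, the large proteoglycan versican, had 4.59 against 14.2 CPM. Bgn, biglycan, a close relative of decorin, did not share this pattern: 905 against 430 CPM, a scaled ratio of 0.04. Hspg2, perlecan of the basement membrane, was at 200 against 75.7 CPM (0.36). The 2 members that did not pass, Fmod and Has2, had 0 and 5 counts against 4 and 1.

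Of the 14 proteins that fold, process and cross-link collagen, 9 lay within 2-fold of the pool median, 2 above and 3 below. Above were the lysyl oxidase relatives Loxl3 (150 against 21.4 CPM) and Loxl2 (72.9 against 13.4 CPM), while Lox itself lay at 0.64 (1481 against 466 CPM). Serpinh1, the collagen chaperone, lay at 0.56. Below were the 3 lysyl hydroxylases Plod1, Plod2 and Plod3, with scaled ratios of -1.29, -1.22 and -1.08. For these 3 the epithelial-like library was at 99.3, 94.1 and 52.1 CPM, and the DMSO library at 139, 88.6 and 86.6 CPM.

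Proteases and their inhibitors lay on both sides of the pool median. Of 22 that passed, of 23 listed, 6 lay at least 2-fold above and 8 at least 2-fold below. Above were the proteases Htra1 (213 against 26.6 CPM, scaled ratio 1.92) and Prss23 (464 against 77.5 CPM, 1.54). The inhibitors of metalloproteases were above too, Timp1 (528 against 112 CPM), Timp2 (318 against 51.5 CPM) and Timp3 (155 against 36.9 CPM). Below were the metalloproteases Mmp3, stromelysin (18.4 against 72.7 CPM), and Mmp13, a collagenase with 1 count against 54 (log2 ratio of the reads -10.81 to -2.94). Adamts5, an aggrecan-degrading protease, had 29.9 against 45.5 CPM. Mmp14 (216 against 69.1 CPM) and Mmp2 (259 against 168 CPM), which act together at the cell surface, lay within 2-fold of the median, at 0.60 and -0.41.

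The cytoskeletal list stood above the pool median, with a median scaled ratio of 0.46. Of 27 that passed, 10 lay at least 2-fold above and 1 at least 2-fold below. Besides Vim the members above included Acta2, smooth muscle actin (189 against 16.4 CPM), Tagln, an actin-binding protein of contractile cells (62.5 against 4.79 CPM), the caveolins Cav1 (360 against 30.3 CPM) and Cav2 (43.5 against 2.79 CPM), and the tropomyosin Tpm2 (71.0 against 8.78 CPM). Other genes of smooth muscle did not share a direction. Smtn, smoothelin, had 28.0 against 41.1 CPM. The rest had few counts: Myh11 had 2 counts against 6, Synpo2 21 against 6, Actg2 7 against 0, Lmod1 5 against 2 and Cnn1 3 against 0. Des, the muscle intermediate filament, had 3.38 against 2.99 CPM. Acta2 was not ordered as the pool was in the other libraries, since it was at 45.0 CPM on feeders at day 0 and 59.0 CPM at day 4 on Matrigel, both above the DMSO library.

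S100 proteins, annexins and galectins, which bind calcium or sugars and are abundant in fibroblasts, had the highest median of the 10 lists. Of 15, 10 lay at least 2-fold above the pool median and none 2-fold below it. The median log2 ratio was 2.25 before scaling and 1.22 after it. S100a6 had 1213 against 159 CPM, S100a4 301 against 46.7 CPM, Anxa1 850 against 95.6 CPM and Lgals3 99.5 against 14.8 CPM. Summed over the list the level was 5.36-fold higher. Lgals1 (794 against 270 CPM) was nearer to the pool, with a scaled ratio of 0.52.

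**Figure D4:**
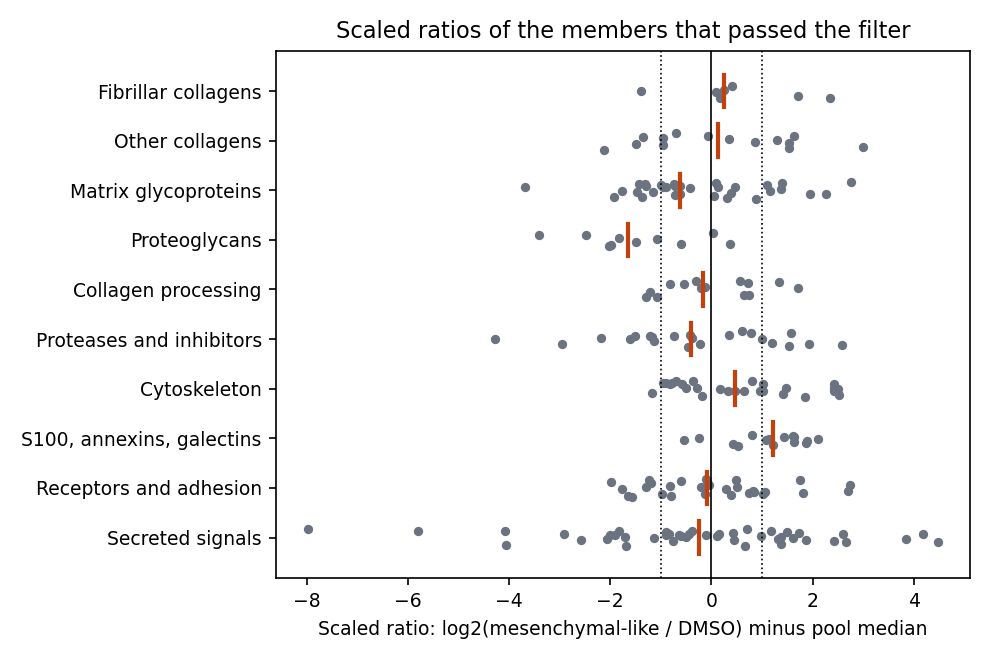
Scaled ratio of each of the 214 members (x axis: log2 ratio of the mesenchymal-like over the DMSO library minus the pool median), 1 point per gene, by gene list; orange bars are list medians and dotted lines mark 2-fold from the pool median. Proteoglycans have their median at -1.66, the S100, annexin and galectin list at 1.22, and the secreted signals span -7.98 to 4.48.

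Receptors and adhesion molecules spread to both sides, 6 at least 2-fold above and 7 at least 2-fold below of 29 that passed, of 31 listed. Cd44, the hyaluronan receptor, had 374 against 26.6 CPM, and Cdh2, N-cadherin, had 196 against 13.8 CPM. Itga5, a chain of the fibronectin receptor, had 342 against 48.9 CPM. The platelet-derived growth factor receptors diverged: Pdgfra had 33.6 against 56.7 CPM (scaled ratio -1.77) and Pdgfrb had 57.0 against 29.5 CPM (-0.11). Osmr, the receptor for oncostatin M, had 23.2 against 46.1 CPM, and Ly6a, a surface protein of fibroblasts and progenitors, had 45.2 against 50.9 CPM. Ly6c, at 4.83 against 7.98 CPM, has near-identical relatives, and its value is uncertain. Fap had 0 counts in both libraries.

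Secreted signals lay on both sides of the pool median. Of 44 that passed, of 49 listed, 14 lay at least 2-fold above and 13 at least 2-fold below. Growth factors were among the members above. Ctgf, connective tissue growth factor, had 532 against 40.1 CPM, and Csf1, the macrophage growth factor, 429 against 38.3 CPM. Tgfb2 had 31.1 against 1.60 CPM, and it averaged under 1 CPM over the 10 libraries outside the comparison, so it passed the filter through the libraries compared. The same holds for Lif. Inhba, Grem1 and Lif were also above, with scaled ratios of 1.73, 1.86 and 1.31. Prl2c3 and Prl2c2, proliferin genes of the prolactin family, had 602 against 12.2 CPM and 330 against 10.2 CPM. They are near-identical relatives whose reads RSEM may have divided between them, so the value of each is uncertain.

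The lower end of this list held chemokines and acute-phase proteins. Saa3 had 10 counts in the mesenchymal-like library and 2107 in the DMSO library, which were 2.41 and 421 CPM, or 174-fold. Among the other feeder libraries Saa3 was at 19.8 CPM on day 0 and at 251, 82.9 and 184 CPM with 0.5, 1 and 2 µM UNC0638. It was also at 162 CPM in the GFP-low and 213 CPM in the GFP-mid fraction, and at 0 in the epithelial-like library. Cxcl5, a neutrophil-attracting chemokine, had 2.66 against 99.4 CPM. Cxcl12, which attracts cells that carry Cxcr4, had 9.66 against 87.0 CPM, and Lcn2, lipocalin 2, which binds bacterial iron carriers, had 15.2 against 131 CPM. Complement C3 (13.3 against 40.5 CPM) and Cxcl1 (2.17 against 10.8 CPM) were also lower. Not every chemokine was: Ccl2 had 155 against 68.1 CPM and Ccl7 116 against 52.3 CPM, with scaled ratios of 0.14 and 0.10.

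Other ligands of the list, chosen after their values were seen, went both ways. Kitl, the ligand of KIT, was above the median, with 13.8 against 1.80 CPM. Igf1 (0.724 against 2.40 CPM), Igf2 (320 against 245 CPM) and Fgf10 (1.93 against 4.39 CPM) were not. Fgf2 had 0 counts in both libraries, and Hgf had 1 count against 4.

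Ratios between genes of the same library do not depend on how libraries are scaled, so 25 members were also expressed as TPM per Col1a1 TPM. Col1a1 itself was at 1088 CPM with DMSO, but at 70.5 CPM on day 0 and 137 and 149 CPM with 1 and 2 µM UNC0638. The epithelial-like library had 84.0 CPM. How much of the ratios in these feeder libraries came from feeder cells was not tested. Vim was at 1.40 in the mesenchymal-like and 0.277 in the DMSO library. In the other feeder libraries it was at 0.563 on day 0 and at 0.471, 0.700 and 1.25 with 0.5, 1 and 2 µM UNC0638, so the feeder libraries themselves spread over most of that range. S100a6 behaved alike, at 4.11 in the mesenchymal-like library, 1.17 with DMSO, 3.94 on day 0 and 6.28 with 2 µM. For both genes the DMSO library was the lowest of the 5 feeder libraries. Tinagl was at 0.135 against 0.019 with DMSO and 0.115 with 2 µM. Several other members were higher on day 0 than in the mesenchymal-like library: Prl2c3 (1.90 against 1.65), Anxa1 (2.06 against 1.31), Acta2 (1.78 against 0.222), Cd44 (0.201 against 0.167) and Cdh2 (0.088 against 0.082). Ctgf, at 0.467, and Sparc, at 1.82, stood above all 5 feeder libraries (at most 0.272 and 1.58), as did Vim and Tinagl.

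For the lower members the mesenchymal-like library stood apart from all 5 feeder libraries. Saa3 was at 0.012 TPM per Col1a1 TPM, and the feeder libraries ranged from 3.36 to 14.7. Lcn2 was at 0.042, against 0.357 to 4.56. Cxcl12 was at 0.0098, against 0.118 to 0.242. Mmp3 was at 0.021, against 0.130 to 0.381, and Dcn at 0.076, against 0.248 to 0.674. The epithelial-like library, also grown on Matrigel, was low as well, with Saa3 at 0, Cxcl12 at 0.047, Mmp3 at 0.0077 and Dcn at 0.031, so these low ratios were not particular to the mesenchymal-like library. Other cultures on Matrigel were not low throughout. Saa3 was at 3.79 and 2.02 after 4 and 9 days on Matrigel and at 91.0 and 51.8 in GFP-low and GFP-mid cells. Mmp3 was at 0.336 and 0.471 after 4 and 9 days, and at 0 in GFP-low and GFP-mid cells. Col3a1 did not follow this pattern, at 0.122 against a feeder range of 0.092 to 0.342. Col1a2 was at 0.520, near the 0.464 with DMSO but above the feeder range of 0.287 to 0.490. Bgn was at 0.781, near the 0.810 with DMSO but below the feeder range of 0.806 to 2.09.

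**Figure D5:**
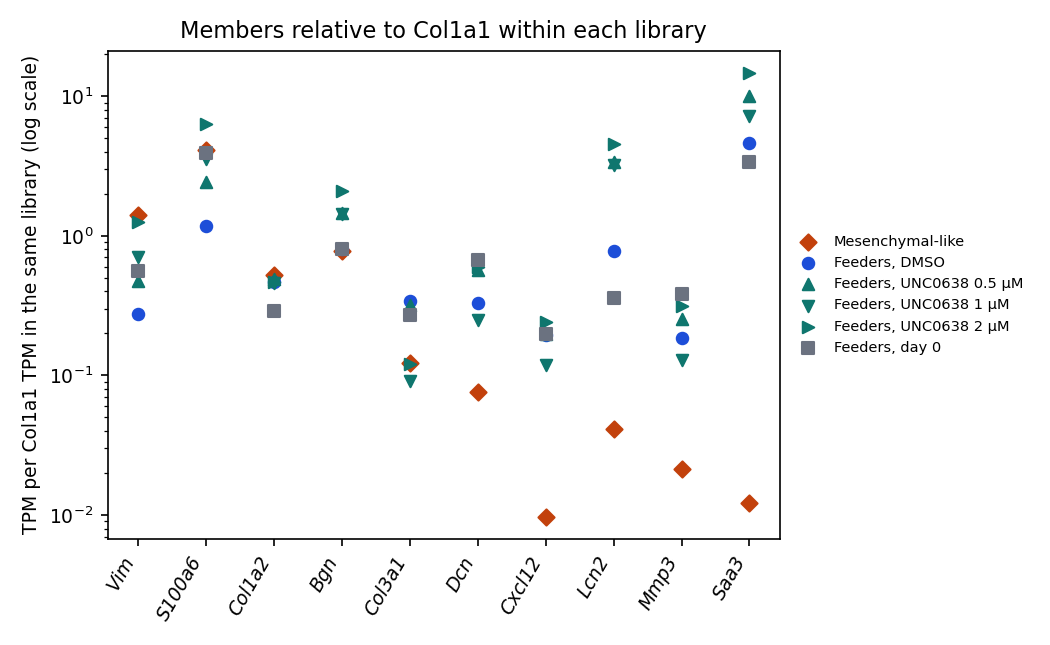
TPM of 10 members divided by the TPM of Col1a1 in the same library (y axis, log scale) in the mesenchymal-like library (diamonds) and the 5 feeder libraries (other symbols). For Dcn, Cxcl12, Lcn2, Mmp3 and Saa3 the mesenchymal-like library lies below all feeder libraries; for Vim and S100a6 the feeder libraries reach its value or come close.

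The same measures were taken over other pairs of libraries. Over the 152 members with at least 50 counts in both libraries, the robust SD of the log2 ratios (from the median absolute deviation) was 1.44, and 48.0% were at least 2-fold from their median. Over all 8896 genes with such counts the robust SD was 0.38, and 5.35% were 2-fold from the median. The mesenchymal-like library was further from the epithelial-like library, with a robust SD of 2.25 and 56.7% of the pool TPM to be reassigned, and from the 3 GFP fractions, with 2.22 to 2.56 and 63.4% to 70.0%. The DMSO library against that with 0.5, 1 or 2 µM UNC0638 gave a robust SD of 0.61, 0.97 and 0.73 over the members, and 14.9%, 28.7% and 21.7% of the pool TPM would have to be reassigned. The DMSO library against the day 0 library, both on feeders without inhibitor, gave 1.17 and 37.2%. That share is nearly the 38.9% found between the mesenchymal-like and DMSO libraries, although all genes differed more in that pair (robust SD 0.60). The day 0 pool summed to 6323 CPM, below the 7029 CPM of the epithelial-like library on Matrigel, and the DMSO pool to 17794 CPM. The 37.2% therefore does not compare 2 feeder libraries with similar amounts of mesenchymal RNA. These pairs share the DMSO library, and members are not replicates, so the values are a description. The day 4 against the day 0 library gave 0.24 and 5.85%.

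Part of the pool is present without a mesenchymal culture. In the epithelial-like library it summed to 7029 CPM. Of the 53 members below the pool median, 16 had a level there of at least 50% of that in the DMSO library, such as Mcam (607 CPM there, 422 in the mesenchymal-like and 505 in the DMSO library) and Nid2 (599, 494 and 537 CPM). Such a member has a scaled ratio below 0 while its level is similar in all 3 libraries. For 29 of the 53, among them Saa3, Cxcl5 and Lcn2, the epithelial-like level was under 20% of that in the DMSO library. Restricted to the 90 members whose epithelial-like level was under 20% of that in both libraries, 25 lay above and 27 below, and the robust SD was 1.43. With the epithelial-like level subtracted from both libraries, 48 of 184 members lay above and 60 below.

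Lists outside the pool were counted against the same background, 7.78% of all genes tested being 2-fold higher and 2.47% lower. Of 28 germ cell genes, 0 were 2-fold higher or lower, and their median log2 ratio was -0.22. A count of 0 in a list of this size is not far from that background. Dazl, an RNA-binding protein of germ cells, had 1434 against 1677 CPM, and Ddx4 had 416 against 605 CPM. The 20 cell cycle genes had a median of -0.29, with none 2-fold different. Of 16 interferon-response genes that passed 1 was 2-fold higher and 4 lower, with a median of -0.67. The 16 epithelial genes that passed had -0.49, with 3 of them 2-fold lower.

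Markers of other cell types were mixed in level. Of 14 macrophage genes, 7 were at 0 counts in the DMSO library, among them Csf1r, C1qa, C1qb, C1qc, Tyrobp and Emr1 (Adgre1), and the list summed to 13.4 CPM. In the mesenchymal-like library it summed to 50.5 CPM, of which Lyzs (Lyz2) made up 30.2 CPM. Other macrophage genes were detected in the DMSO library, Cd68 with 27 counts (26 in the mesenchymal-like library), Mrc1 with 12 (2), Cd14 with 12 (8), Fcer1g with 9 (15) and Ptprc with 3 (2). In the GFP-low fraction, where Saa3 was at 162 CPM, Lyzs was at 1524 CPM and Csf1r at 52.5 CPM. The list of gonadal factors summed to 502 against 594 CPM, mostly from Dmrt1 (376 against 431 CPM), which is also a germ cell gene, and Cbx2 (92.7 against 141 CPM). Of the others Nr5a1 was at 0 counts in both, Wt1 had 4 counts against 22 and Gata4 3 against 11, while Gata6 had 22 against 5, Sox9 94 against 70 and Emx2 10 against 1. The Sertoli genes Amh and Fshr and the Leydig genes Cyp17a1, Insl3, Hsd3b1 and Lhcgr had 0 counts in both libraries. Detected members of those lists were Sox9, Gstm6 (32 against 33 counts), Cldn11 (2 against 13), Dhh (1 against 8), Star (20 against 23) and Fdx1 (170 against 219). Inha had 3 counts against 0, and Aard and Cyp11a1 had 1 against 0 each. The endothelial list summed to 105 CPM in the mesenchymal-like and 108 CPM in the DMSO library, of which Flt1, a receptor for vascular growth factors, made up 71.5 and 83.6 CPM. Emcn and Sox17, also on that list, had 0 counts in both. The part of other cell types in the make-up was not tested.

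Of 22 transcription factors of mesenchymal cells that passed, of 34 listed, 8 were 2-fold higher in the mesenchymal-like library and 0 lower, against 7.78% and 2.47% of all genes. Hic1 and Nr2f2, 2 of the 8, averaged under 1 CPM in the other 10 libraries and passed the filter through the libraries compared. Set against the pool median, 19 lay within 2-fold, 0 above and 3 below. Prrx1, a factor of limb and connective tissue mesenchyme, had 41.3 against 21.2 CPM (scaled ratio -0.10), and Twist2 had 24.4 against 14.4 CPM (-0.31). Fosl1, a subunit of AP-1, had 38.6 against 14.6 CPM, and Hmga2, a chromatin protein of fetal cells, had 25.8 against 8.38 CPM. Osr1 (24 against 55 counts), Twist1 (3.62 against 5.39 CPM) and Snai1 (66.9 against 69.5 CPM) were the 3 below. Osr1 also averaged under 1 CPM in the other 10 libraries and passed the filter through the libraries compared. Twist1 and Snai1 were at 5.63 and 51.9 CPM in the epithelial-like library, which had little of the pool.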

How the data were processed

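RNA-seq libraries were made by a modified Smart-seq2 procedure, per the labels' protocols. The submitters' processing notes name Trim Galore, RSEM and mm10, with no versions used here. The authors deposited an expected count and a TPM for each of 27128 genes in each library, per the file headers. The expected counts are RSEM estimates that were not normalized, and the deposited TPM are what the authors obtained after allowing for gene length and library total. How strand was handled is not given in the sources used here. Expected counts were rounded to whole numbers.

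In R 4.3.3, edgeR 4.0.16 gave TMM factors between 0.912 and 1.07, from which CPM were computed. The filter was an average of 1 CPM or more across the 12 libraries and left 14301 genes. Ratios are log2 of CPM + 1 between libraries, a pseudocount that understates low genes; a difference of at least 2-fold was counted. With 1 library per group there is no test and no p-value. Intervals are 95% Clopper-Pearson intervals of a share of counts, or of the split of a gene's reads between libraries without the pseudocount. Reads were amplified and carry no molecular identifiers, so they are not independent and the intervals cover counting error only. A level of 3 counts, 0.238 to 0.724 CPM, was taken as the smallest visible one.

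The 2 libraries, the members and the lists were chosen with earlier results of these data known. Genes were matched by RefSeq transcript (223 of the 227 pool genes) or symbol (4). Named members were the 4 markers, the 10 highest and 10 lowest scaled ratios among members with at least 50 counts in the higher library, the 10 highest in TPM in each library, up to 4 examples per list, and, outside the pool, the 5 highest and 5 lowest ratios. Some lists are described with more members than that, chosen after their values were seen. So were the promoters shown, the members set against Col1a1, and the NF-kB and CArG motifs. Some genes that this rule names are not reported here. The steps were tested on simulated data. Alternatives were other scalings (total counts, TPM as deposited, size factors of DESeq2 1.42.0), pseudocounts, filters and centres. Calculations ran in Python 3.11.15 (scipy 1.17.1, pandas 2.3.3, numpy 2.4.6) and plots in matplotlib 3.10.9.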

Additional observations from a re-analysis of the deposited data

How the results depend on the processing

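The pool stayed higher in the mesenchymal-like library in every alternative run. Its median log2 ratio of 1.03 became 1.05 with DESeq2 size factors, 0.91 with total counts and 0.87 with the deposited TPM, 1.07 and 0.84 with pseudocounts of 0.1 and 5, 0.90 without a filter and 1.13 with a filter at 10 CPM. It was 1.13 over members with 50 counts in both libraries, 0.94 without the 5 members holding most counts, 1.08 over members low in the epithelial-like library, and 1.84 and 1.80 after subtraction of the epithelial-like or GFP-low level. The members above and below the centre (62 and 53) became 37 and 38 with the filter at 10 CPM, 37 and 36 with 50 counts in both, and 25 and 27 over members low in the epithelial-like library, with fewer genes counted in each. At a 4-fold distance they were 19 and 16 of the same number of members. Centred on the ratio of summed CPM they were 47 and 75. The robust SD of 1.44 was 1.45 and 1.39 with pseudocounts of 0.1 and 5, 1.46 with the filter at 10 CPM, 1.47 without the 5 largest members, 1.43 over members low in the epithelial-like library, and 1.76 and 1.57 after the 2 subtractions.

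Over all genes, 1112 higher and 353 lower became 636 and 59 with a pseudocount of 5, 463 and 87 with the filter at 10 CPM, and 729 were lower with a pseudocount of 0.1. Total counts and the deposited TPM moved the median of all genes by -0.11 and -0.17, and the share of calls that were higher from 75.9% to 67.4% and 61.9% (931 and 451, 857 and 527 genes). For members it went from 88.4% to 84.7% and 84.6%. Of 23 named members, 22 stayed at least 2-fold from the centre on their side in each alternative that gave them a value; Col1a1, with a scaled ratio of 0.10, ranged from -0.65 to 0.28. The list medians of S100, annexins and galectins (0.87 to 1.42) and proteoglycans (-2.84 to -0.99) kept their side of the centre, as did cytoskeleton (0.11 to 2.37) and proteases and inhibitors (-0.96 to -0.26), and the other 6 crossed it in 1 to 8 of 16 alternatives. The choices of the fibrillar collagens as centre, of members low in the epithelial-like library and of members passing the filter in the other 10 libraries were made after seeing the data. The scaled ratio was not related to transcript length (Spearman's rho -0.02 over 214 members, a description). Depth limits members under about 50 counts. No paired analysis was possible because each RNA group had 1 library.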

Other observations

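Outside the pool, the 5 genes with the lowest and the 5 with the highest ratio are described here. Hp, haptoglobin, an acute-phase protein, had 7 counts in the mesenchymal-like and 805 in the DMSO library (1.69 and 161 CPM), and Steap4, a metalloreductase, had 10 against 446. Cfb, complement factor B, had 1 count against 81, and C1s, a complement protease, 1 against 74. Svep1, a large matrix protein, had 7 against 170 counts. At the other end Ankrd1, a protein of stretched muscle and other cells, had 97.1 CPM against 1.60 CPM, and at most 3.29 CPM in the other 10 libraries. Serpinb9b had 530 counts against 2 (log2 ratio of the reads 6.46 to 11.37), Asb5 had 424 against 3 (5.86 to 9.70) and Crct1 had 193 against 2 (4.99 to 9.92). Tom1 had 188 counts against 0, at least 75.8-fold higher, but it was also at 0 in the epithelial-like library and with 2 µM UNC0638 and at 15.5 to 47.8 CPM in the other 8 libraries.

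Hox genes record embryonic position. Of 15 that passed the filter, 1 was 2-fold higher and 0 were 2-fold lower in the mesenchymal-like library, near the 7.78% and 2.47% of all genes, and the median log2 ratio was 0.41. The Hoxb genes were as high in the epithelial-like library (Hoxb6 at 152 CPM there, 119 in the mesenchymal-like and 107 in the DMSO library). Among Hoxc genes that did not pass, Hoxc5 had 9 counts against 2, Hoxc6 had 18 against 1 (log2 ratio of the reads 1.78 to 9.83), Hoxc8 had 9 against 0 and Hoxc10 had 4 against 6. Hoxc9, which passed, had 8 against 12. Msln, mesothelin, had 20.8 CPM against 1.20 CPM and Upk1b 43 counts against 0, at least 17.3-fold higher, while Upk3b and Muc16, also genes of mesothelium, had 0 counts in both. Msln and Upk1b averaged under 1 CPM in the other 10 libraries and passed the filter through the libraries compared. The other mesothelial genes that passed were Wt1, with 4 counts against 22, and Krt19, with 8 against 13. Cdkn1c, an imprinted cell cycle inhibitor, had 86.4 against 17.6 CPM, and Grb10, an imprinted growth inhibitor, had 71.2 against 32.1 CPM. Xist, the RNA that coats the inactive X chromosome, had 49 counts against 23, and 0 in the epithelial-like library. Xist came to 0.0256% of the summed pool CPM in the mesenchymal-like and 0.0258% in the DMSO library, but to 0.0513% on feeders at day 0 and 0.0289%, 0.0538% and 0.0721% with 0.5, 1 and 2 µM UNC0638, so it was not a fixed share of the pool. Tsix overlaps Xist on the other strand, so reads of the 2 genes cannot be told apart without strand.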
